A study of Homo sapiens with 2 samples.

Results

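The proteasome genes are those that encode the subunits, activators, inhibitor and assembly chaperones of the proteasome and carry a symbol from PSMA to PSMG followed by a number. They were chosen by symbol, among probe sets that the array annotation assigns to exactly 1 gene. This gave 42 genes and 81 probe sets, out of 19775 genes and 41091 probe sets with 1 symbol on an array of 54675 probe sets. RefSeq lists 48 genes with such symbols. PSMA6, PSMB11, PSMC5, PSMD7, PSMD13 and PSME2 had no probe set under this rule and were not analysed here. PSME3IP1 and PSMC3IP, whose symbols only begin alike, were not counted, nor were antisense and divergent transcripts.

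The samples were MM.1S cells, an established human multiple myeloma line that resembles plasma cells. One group shared its culture with plasmacytoid dendritic cells (pDCs), immune cells that release type I interferon in large amounts, and the other was MM.1S grown alone. Where the pDCs came from, and whether they were taken out before RNA was made, the labels do not say. Each group had 1 Affymetrix HG-U133 Plus 2.0 array of total RNA (n = 1 per group), so no value has a replicate error, no test was possible, and "higher" and "lower" describe these arrays. The series links pDCs to growth and drug resistance of myeloma cells, and the comparison here asks how proteasome transcripts differ when pDCs are present.

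The proteasome is the protease that degrades ubiquitin-tagged proteins. Its 20S core is a barrel of alpha and beta rings, with the cutting sites on the beta subunits PSMB5, PSMB6 and PSMB7. In immune cells and under interferon these are replaced by PSMB8, PSMB9 and PSMB10, which make the immunoproteasome and favour peptides suited to HLA class I. The 19S cap binds ubiquitin, unfolds substrates with the PSMC ATPases and feeds them into the core, while PSME proteins are other caps. Plasma cells depend on this protease because they make large amounts of secreted protein, and proteasome inhibitors such as bortezomib, which binds the PSMB5 site, are used against myeloma.

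Interferon acts on such genes through promoter elements with paired TTTC or GAAA letters, so RefSeq promoters (GRCh38.p14, 250 bases before to 50 after a start) were searched on both strands for TTTC, any 2 bases and TTTC again, which reads GAAA, 2 bases and GAAA on the other strand. Of the 42 genes, 36 had a promoter in the table and 6 of these (16.7%) held the motif in at least 1 promoter, against 4.38% of 27305 genes and 3.57% of their 35116 promoters. They were PSMB8, PSMB10, PSME1, PSMB4, PSMA4 and PSMG4. PSMB9, the other immunoproteasome subunit measured, had a promoter in the table but no match. The 6 matches are shown as up to 30 bases, 5′ to 3′ on the gene's strand, with the motif in capitals. They are shown because 3 of the 6 genes belong to the interferon-responsive members of the complex.
PSMB8, chr6:32844032-32844061, minus strand: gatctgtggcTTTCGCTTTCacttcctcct
PSMB10, chr16:67936852-67936881, minus strand: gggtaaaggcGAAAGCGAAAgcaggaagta
PSME1, chr14:24136189-24136218, plus strand: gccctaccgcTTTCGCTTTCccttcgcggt
PSMG4, chr6:3258904-3258933, plus strand: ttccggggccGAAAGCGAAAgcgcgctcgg
PSMB4, chr1:151399495-151399524, plus strand: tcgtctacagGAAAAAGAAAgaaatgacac
PSMA4, chr15:78540155-78540184, plus strand: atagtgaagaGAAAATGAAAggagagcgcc
The PSMB8 motif begins 4 bases before the more downstream of that gene's starts, the PSMB10 motif 21 bases before its start and the PSME1 motif 5 bases after its start. A match describes the letters and is not a bound site.

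Proteasome genes are also known targets of NFE2L1, a transcription factor that binds antioxidant-type elements and raises subunit synthesis when the protease is inhibited. The letters TGAC, any 3 bases and GC, searched on both strands, were in the promoters of 13 of the 36 genes (36.1%), against 16.1% of all genes and 13.3% of all promoters. In 2 genes, PSMA4 and PSME1, both motifs were present, and they overlapped in 0 genes. The matches before the start of PSMD12 and PSMD3 (19S lid), PSME4 (activator) and PSMG1 (assembly chaperone) are shown as examples. Of the log2 ratios below, PSME4 has the highest (0.76), PSMD12 has 0.43, PSMD3 has 0.13 and PSMG1 has -0.54.
PSMD12, chr17:67366724-67366752, minus strand: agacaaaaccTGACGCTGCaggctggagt
PSMD3, chr17:39980760-39980788, plus strand: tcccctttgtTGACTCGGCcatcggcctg
PSME4, chr2:53971009-53971037, minus strand: cccggcggctGCAGCGTCAccagcagagc
PSMG1, chr21:39183616-39183644, minus strand: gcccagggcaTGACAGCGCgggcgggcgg

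Proteasome transcripts differed little between the arrays. With pDCs, 11 of 14 subunits of the 19S cap were higher, 7 of 8 in its base and 4 of 6 in its lid. In the lid this became 3 higher and 3 lower when the ratios of a gene's probe sets were averaged. Lower were 10 of 13 constitutive subunits of the 20S core and 3 of 3 of the immunoproteasome. Of the 11522 genes above the floor given below on both arrays, 47.7% were higher and 52.3% lower. Values are MAS5 signals, the linear brightness the authors deposited for each probe set. Each gene is represented by its brightest probe set (by mean log2 signal), and the log2 ratio is with pDCs minus alone. The 19S ratios, from -0.42 to 0.43, are all smaller in size than 0.48, the pooled SD between probe sets of 1 gene. The median signal of each array, 115.9 with pDCs and 124.0 alone, served as a floor. Of the 42 genes, 41 were above it on both arrays. PSMA8, the testis form of an alpha subunit, was at 102 with pDCs and 124 alone and has only a bound.

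None of the 42 genes was 2-fold higher or lower. Among all 14408 genes above the floor on at least 1 array, 3.16% were 2-fold higher and 4.51% 2-fold lower. Of the 14408, 2886 were below the floor on 1 array and have only a bound. At 1.5-fold, PSME4 was the only proteasome gene that was higher (1 of 42, 2.38%, against 11.5% of all genes), and PSMB8 and PSMB5 were lower (2 of 42, 4.76%, against 15.3%). Leaving PSMA8 aside, 92.7% of the 41 genes lay within 1.5-fold, against 76.2% of the 11522 genes that also exceeded both floors. All 41 had signals of 1040 or more on both arrays, whereas the 11522 begin at the floors. The sets were not matched for signal, so the shares are not compared at equal brightness. Among the 41 genes, 18 ratios were positive and 23 negative, with a median of -0.12. The median of the 11522 genes was -0.03, and 52.3% of their ratios were negative.

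**Figure D1:**
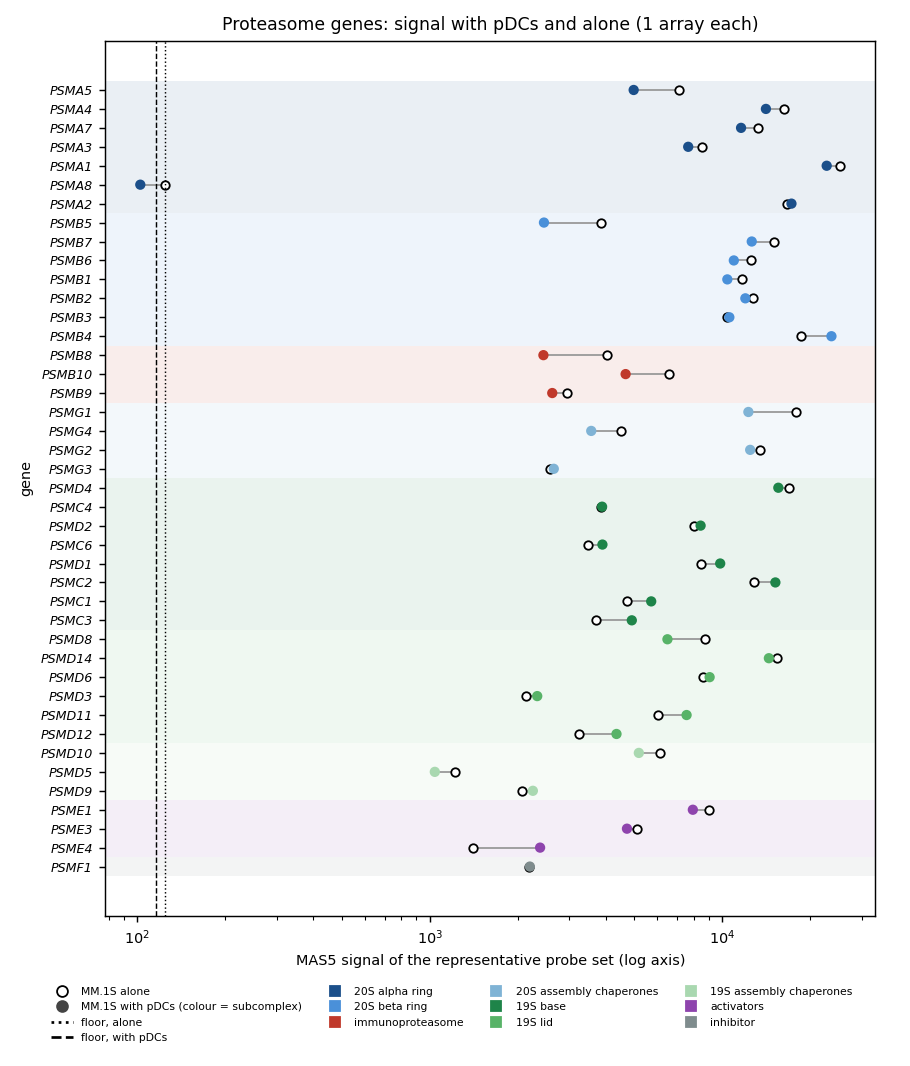
MAS5 signal on a log axis of the representative probe set of each of the 42 proteasome genes, with open circles for MM.1S alone, filled circles for MM.1S with pDCs (1 array each) and colours for the subcomplex; dotted and dashed vertical lines mark the floors of 124.0 and 115.9. Only PSMA8 lies at the floor; for most 19S genes the filled circle is to the right, and for most 20S genes it is to the left. Signals of different probe sets cannot be compared with each other.

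Constitutive 20S subunits were mostly lower with pDCs. Of the 13 genes other than PSMA8, 10 were negative and 3 positive, with a median log2 ratio of -0.17. In the alpha ring, whose subunits form the gate of the barrel, 5 of 6 such genes were negative. PSMA5 had a signal of 4981 with pDCs and 7145 alone (log2 ratio -0.52), the lowest of the alpha ring. PSMA2 had 17257 with pDCs and 16613 alone (0.05), the highest of the ring. The others, PSMA1, PSMA3, PSMA4 and PSMA7, lay between -0.21 and -0.15.

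In the beta ring, 5 of 7 genes were negative. PSMB5, the chymotrypsin-like subunit and the main target of bortezomib, had a signal of 2457 with pDCs and 3852 alone, which is 1.57-fold lower (log2 ratio -0.65). It is represented by 1 probe set. PSMB7, the trypsin-like subunit, had 12622 with pDCs and 15036 alone (-0.25). PSMB6, the caspase-like subunit, had 10961 with pDCs and 12533 alone (-0.19). All 3 constitutive catalytic subunits were thus negative, and PSMB5 had the most negative ratio of the ring. PSMB4, a beta subunit with no cutting site, went the other way, with 23644 against 18585 (0.35). PSMB1, PSMB2 and PSMB3 lay between -0.17 and 0.03.

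The immunoproteasome subunits were lower as well, all 3 of 3. PSMB8, which takes the place of PSMB5, had a signal of 2447 with pDCs and 4042 alone and was 1.65-fold lower (log2 ratio -0.72), the most negative of the 42 genes. PSMB10, which replaces PSMB7, had 4675 with pDCs and 6603 alone and was 1.41-fold lower (-0.50). PSMB9, which replaces PSMB6, had 2623 with pDCs and 2945 alone (-0.17). Each rests on 1 probe set. Set against the subunit it replaces, the log2 ratio of PSMB8 minus that of PSMB5 was -0.08, that of PSMB9 minus PSMB6 was 0.03 and that of PSMB10 minus PSMB7 was -0.25. PSMB8 and PSMB9 therefore had nearly the same ratio as the subunit each replaces, and PSMB10 was lower by more than PSMB7. Probe sets of the same gene disagree by more than any of these differences: over the 4844 genes for which 2 or more probe sets exceeded both floors, the pooled SD of the log2 ratio within a gene was 0.48.

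Cell types that carry immunoproteasomes could contribute to these signals, so their markers are given beside them. Of 13 listed pDC markers, 12 were measured, and 8 exceeded at least 1 floor. The summed signal of all 12 was 8979 with pDCs and 12509 alone, with TCF4 (3569 and 4400) and DERL3 (2716 and 4068) as the largest terms. Both were high in MM.1S grown alone, and signals of different probe sets cannot be compared. The sum is therefore no measure of pDC RNA. GZMB, at 174 and 604, and PACSIN1, at 400.2 and 928, were past 2-fold lower with pDCs. CLEC4C, IL3RA, SPIB and TCL1A were below the floor on both arrays, and only LILRA4 had a positive ratio. Of 7 T and NK cell markers, 6 were below the floor on both arrays; 6 monocyte markers, of which only S100A8 exceeded both floors, summed to 415 with pDCs and 1368 alone, and LYZ gave 17.0 and 711 of these sums. Plasma cell markers were present on both arrays, with SDC1 at 10177 and 10503 and XBP1 at 31891 and 44501. Of the 6 markers 4 had a negative log2 ratio, among them CD38 (-0.67) and PRDM1 (-0.47), while IRF4 (0.07) and TNFRSF17 (0.46) were positive. The B cell markers MS4A1, PAX5 and CD22 were at 226, 34.7 and 286 with pDCs and 131, 206 and 360 alone. Less RNA of a gene per cell and fewer cells of a type cannot be told apart in bulk RNA, and the part of marker-bearing cells in the result was not tested.

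The 20S assembly chaperones PSMG1 to PSMG4, which build the alpha ring and then leave it, had 3 negative and 1 positive ratio. PSMG1, which acts as a dimer with PSMG2, had a signal of 12292 with pDCs and 17908 alone and was 1.46-fold lower (log2 ratio -0.54). PSMG2 had 12468 against 13518 (-0.12). PSMG3 had 2655 against 2582 (0.04), the only positive one. PSMG4, the partner of PSMG3, had 3566 against 4510 (-0.34). Thus the members of each dimer had unequal ratios, by less than 0.48.

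Subunits of the 19S cap were mostly higher with pDCs. Of 14 measured, 11 were positive and 3 negative, with a median log2 ratio of 0.15. In the base, which holds the ATPase ring and ubiquitin receptors, 7 of 8 were positive and the median was 0.20. PSMC3, one of the ATPases, had a signal of 4908 with pDCs and 3704 alone (0.41), the highest of the base. PSMC1 had 5718 against 4732 (0.27), and PSMC2 had 15205 against 12799 (0.25). All 5 measured ATPases were positive, though PSMC4, with 3884 against 3863 (0.01), hardly differed. Among the other base subunits, the large scaffold PSMD1 had 0.22 and PSMD2 had 0.08. PSMD4, a ubiquitin receptor, was the negative one, with 15562 against 16942 (-0.12).

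In the lid, which removes ubiquitin chains, 4 of 6 genes were positive and the median was 0.10. PSMD12, a scaffold subunit, had a signal of 4350 with pDCs and 3235 alone (log2 ratio 0.43), the highest of the lid. PSMD11 had 7555 against 6021 (0.33). PSMD8 had 6499 against 8723 and was 1.34-fold lower (-0.42), the lowest of all 19S subunits. PSMD14, the deubiquitinase of the lid, differed little, with 14446 against 15381 (-0.09), and PSMD3 and PSMD6 had 0.13 and 0.07. The 19S assembly chaperones, which hold the ATPases until the base is complete, had 2 negative ratios and 1 positive. PSMD10, also known as gankyrin, had 5188 against 6118 (-0.24), PSMD5 had 1040 against 1219 (-0.23) and PSMD9 had 2251 against 2066 (0.12).

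The median of the 19S base exceeded that of the constitutive 20S subunits, with PSMA8 at its bound, by 0.36. This is less than the pooled SD of 0.48 between probe sets of 1 gene. That gap was between 0.27 and 0.38 in all 8 alternative processings of the same arrays. Median centring cannot change it, and the floors reach it only through PSMA8. Quantile normalization and loess gave 0.34, the mean over probe sets 0.33 and leaving out x_at and s_at probe sets 0.27. That last value covers only 5 base genes and 11 20S genes. As deposited, 87.5% of the 8 base genes were positive, against 47.7% of the 11522 genes. Of the 13 20S genes, 23.1% were positive.

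**Figure D2:**
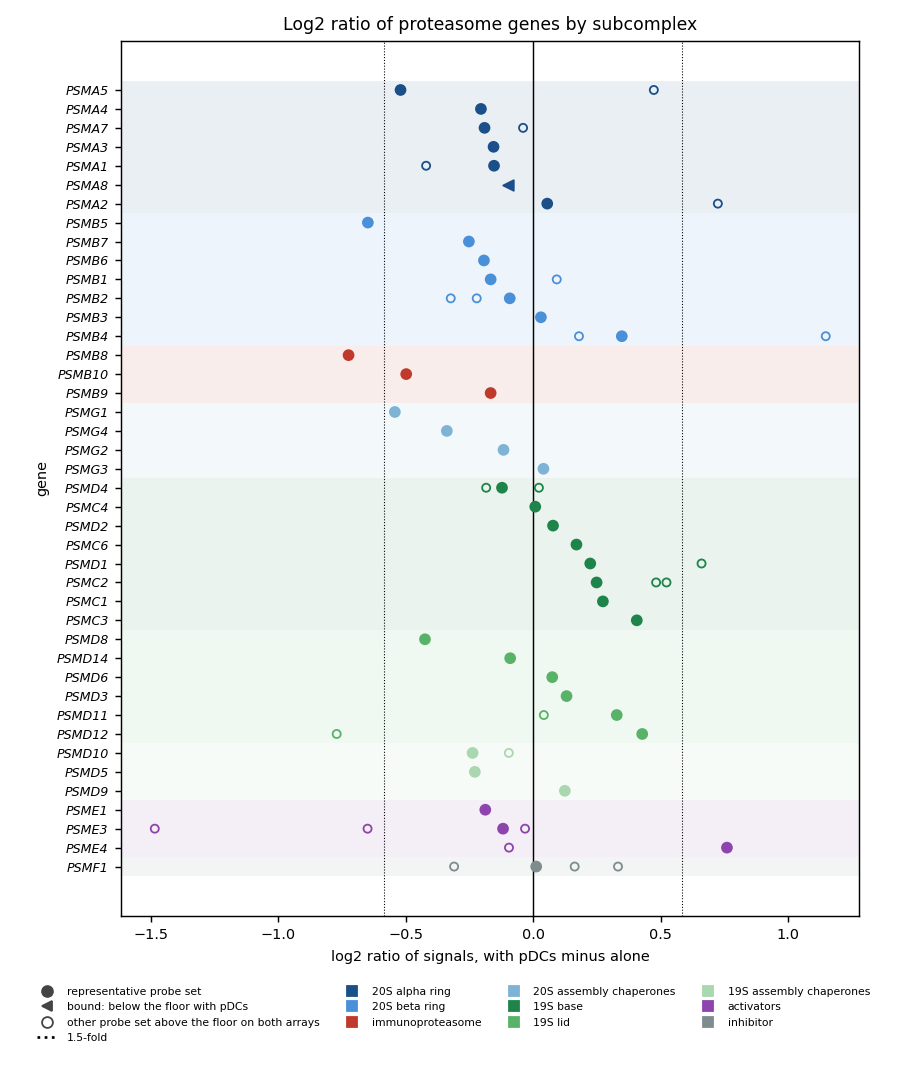
Log2 ratio of signals with pDCs minus alone for each proteasome gene, grouped by subcomplex; filled circles are the representative probe set, open circles are its other probe sets that exceeded both floors, the triangle is a bound and dotted lines mark 1.5-fold. Filled circles of the 19S base lie between -0.12 and 0.41 and those of the immunoproteasome between -0.72 and -0.17, while the open circles of PSMD12, PSMA5, PSME3 and PSME4 lie far from the filled ones.

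Among the activators, which cap the core in place of the 19S particle, 1 gene was positive and 2 were negative. PSME4, which encodes PA200, a nuclear cap tied to histone turnover, had a signal of 2384 with pDCs and 1408 alone and was 1.69-fold higher (log2 ratio 0.76), the highest of the 42 genes. Its next probe set had 655 against 700 (-0.10). The remaining one had 184 with pDCs and 104 alone, which was below the floor, and gave a ratio of at least 0.57. PSME1, the interferon-inducible PA28 alpha chain, had 7937 against 9042 (-0.19). PSME3, the nuclear PA28 gamma, had 4725 against 5129 (-0.12). PSMF1, which encodes the inhibitor PI31, had 2199 against 2181 (0.01).

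Probe sets of the same gene often disagreed. Of 81 probe sets, 66 exceeded both floors, 7 exceeded 1 and 8 neither. In 10 of the 16 genes with several probe sets among the 66, all had the same sign (62.5%, against 49.0% of 4844 genes on the whole array). PSME3 had the widest spread, with log2 ratios from -1.48 to -0.03 over 4 probe sets. The lowest came from a probe set at 591 with pDCs and 1653 alone. PSMD12 had 1095 against 1868 on its other probe set, a log2 ratio of -0.77, opposite to its brightest. Its place as the highest of the lid therefore rests on 1 probe set.

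PSMA5 also had opposite signs, with 285 against 206 (log2 ratio 0.47) on the dimmer probe set. PSMA2 had 2590 against 1568 (0.72) on its dimmer probe set. PSMB4 had 0.18 and 1.15 on its others, the last from 409 against 185. All PSMB4 probe sets were thus positive. PSMF1 ranged from -0.31 to 0.33 over 4 probe sets. PSMD1 had 0.66 on its other probe set and PSMC2 had 0.48 and 0.52, so these base subunits were positive on each. PSMG4 had 2 further probe sets above the floor on 1 array only, at 36.6 against 180 and 160 against 9.85, and these point in opposite directions.

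Counted by probe set, 4 of the 66 (6.06%) were 1.5-fold higher, against 13.2% of 19273 probe sets with 1 symbol, and 5 (7.58%) were 1.5-fold lower, against 12.8%. At 2-fold there was 1 in each direction, the PSMB4 and PSME3 probe sets just named (1.52% each, against 3.72% and 3.43%). The arrays also differed in RNA integrity measures: the ratio of 3' to 5' signal of the ACTB control probe sets was 8.09 with pDCs and 19.5 alone, and for GAPDH it was 2.46 and 3.07. Probe sets at different places along a transcript can be touched by this, and its part in the ratios was not tested.

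Genes with the interferon-type letters had 5 negative ratios and 1 positive, with a median of -0.27, and the 30 without them had 14 negative and 16 positive, with a median of 0.01. Those with the antioxidant-type letters had 7 positive and 6 negative ratios (median 0.01), and the 23 without had 10 positive and 13 negative (-0.09). PSMB4 was the positive gene of the first set. Several of these genes are in the same subcomplex, so the counts are not independent of the pattern by subcomplex. Of the 11522 genes above both floors, 52.3% had negative ratios. The ratios of the other genes on the array that carry either motif were not summarised.

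Genes of proteins that bind or regulate the proteasome were more often higher than lower with pDCs on their brightest probe sets. Of 13 measured, 9 were positive and 4 negative (69.2% positive, against 47.7% of the 11522 genes), and none was 2-fold apart. The median log2 ratio was 0.15, less than the pooled SD of 0.48 between probe sets of 1 gene. AKIRIN2, which brings proteasomes into the nucleus, had a signal of 1346 with pDCs and 770 alone (0.81), the highest of the list, and a second bright probe set gave 0.83. ADRM1, a ubiquitin receptor of the 19S base, had 5775 against 4151 (0.48). The 19S-bound deubiquitinase UCHL5 had 0.35 on its brightest probe set and 0.33, -0.43 and -0.84 on the others. USP14, another, had 0.21, with -0.19 and 0.44 on its other probe sets. These genes thus had no single direction across probe sets. SEM1, a small lid subunit, had 0.18. POMP, the factor that matures the 20S core, had 13413 against 15318 (-0.19) and 0.18 on its dimmer probe set. ZFAND2A, a stress-induced proteasome regulator, was the lowest, with 2161 against 4171 (-0.95).

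Around NFE2L1 and the pathway that restores proteasome synthesis, 7 of 9 listed genes were measured, without DDI2 and MAFK. Of these 7, 2 were past 2-fold, both higher (28.6%, against 3.16% of all genes), and neither is NFE2L1. NFE2L2, a factor of the antioxidant response that binds elements of the same type, had a signal of 2845 with pDCs and 1014 alone, which is 2.80-fold higher. Another NFE2L2 probe set had 50.1 with pDCs, below the floor, and 176 alone, which gives -0.60 or lower. BACH1, a repressor at these elements, had 442 against 155 and was 2.84-fold higher, but its signal alone was near that array's floor of 124.0. A second BACH1 probe set, also near the floors with 164 against 141, gave only 0.22 (log2). NFE2L1 itself had 6843 against 8682 (-0.34), and all 3 of its probe sets were negative. NFE2L3 had 0.37, NGLY1, which strips sugars from NFE2L1, had 0.20, and the small MAF partners MAFF and MAFG had -0.04 and -0.97. A second MAFF probe set, with 854 against 486, gave 0.81, and a second MAFG probe set, below the floor alone, gave at least 0.16. The genes of this list thus did not share 1 direction.

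For ubiquitin supply and shuttling, 11 of 15 listed genes were measured, 6 positive and 5 negative, with a median log2 ratio of 0.01 and none past 2-fold. VCP, the segregase that pulls ubiquitin-tagged proteins from membranes and complexes, was the highest, with 9006 with pDCs and 6252 alone (0.53). UBQLN1, a shuttle factor, was the lowest on its brightest probe set, with 7475 against 9992 (-0.42). Its other probe sets were positive, at 0.26 and, with 1223 against 535, at 1.19. UBB, a ubiquitin gene, had -0.10.

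Genes that share interferon control or peptide supply with the immunoproteasome were mixed, with 3 positive and 5 negative of 8 measured and a median log2 ratio of -0.06. TAP1 and TAP2, the peptide transporter genes beside PSMB8 and PSMB9 in the HLA region, were negative like them, with 3484 against 4132 (-0.25) and 1312 against 1639 (-0.32, the lowest of the list). TAP2 had -1.04 and -0.66 on its other probe sets that exceeded both floors, and at least 0.23 on one below the floor alone. IRF1, an interferon-induced activator of these genes, had 1498 against 1622 (-0.11). NLRC5, an activator of HLA class I genes, was the highest, with 512 against 356 (0.52).

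**Figure D3:**
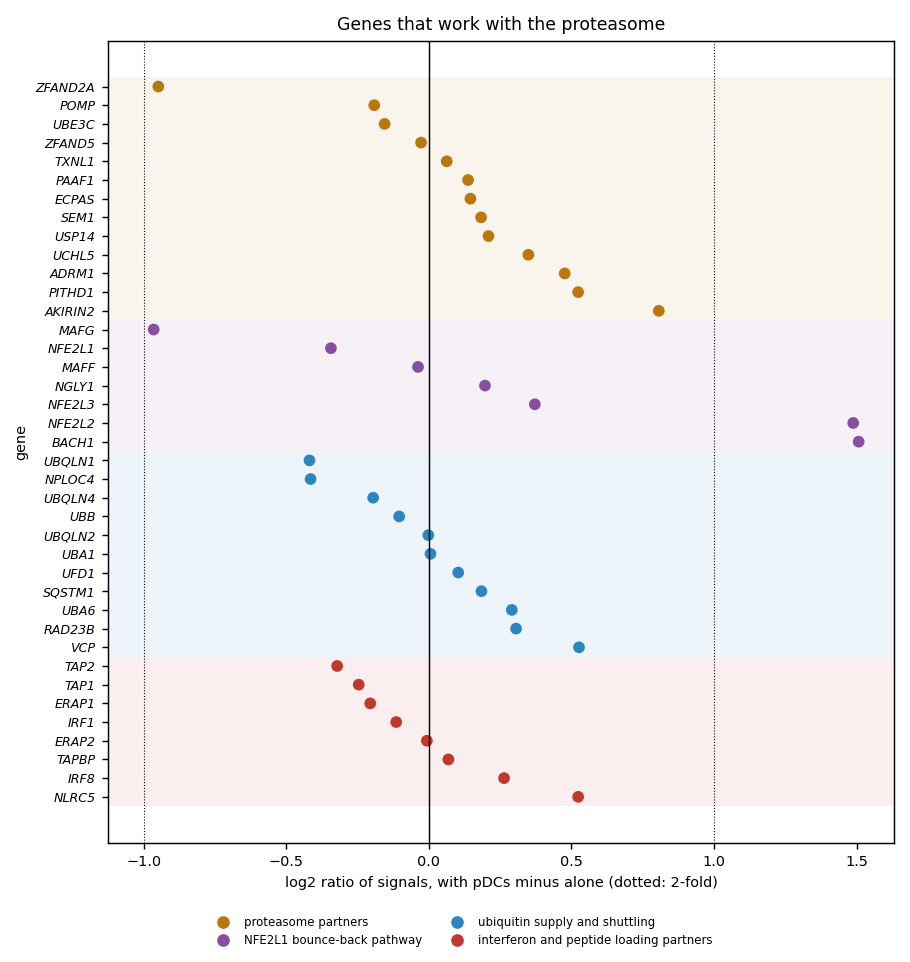
Log2 ratio of signals with pDCs minus alone for genes that work with the proteasome, coloured by list, 1 point for each gene (representative probe set, 1 array per group); dotted lines mark 2-fold. NFE2L2 and BACH1 are the only points beyond 2-fold, AKIRIN2 (0.81) leads the direct partners, and ZFAND2A (-0.95) and MAFG (-0.97) lie lowest.

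The order of the subcomplexes held under most processing choices. Median centring cannot alter this order, and the floors reach it only through PSMA8. The median log2 ratio of the immunoproteasome was between -0.50 and -0.33, that of the constitutive 20S subunits between -0.19 and -0.11 and that of the 19S base between 0.08 and 0.22. The values -0.33 and 0.08 arose without x_at and s_at probe sets, from 2 immunoproteasome genes and 5 base genes. Each immunoproteasome gene has 1 probe set, far above the floor, so floors and averaging over probe sets cannot move it. These ranges are therefore no measure of stability. The 19S lid turned from 0.10 to -0.01 when the ratios of a gene's probe sets were averaged, where PSMD12 had -0.17. Each of the 42 genes had a value in at least 7 of the 9 processings, and 39 kept their sign in each one run. The exceptions were PSMD12, PSMD9 and PSMF1.

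**Figure D4:**
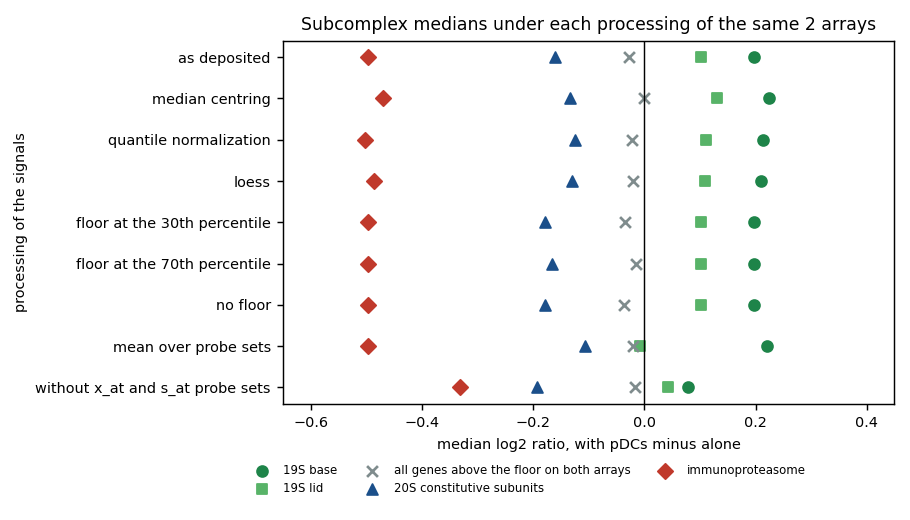
Median log2 ratio with pDCs minus alone for the 19S base, 19S lid, constitutive 20S subunits (PSMA8 at its bound) and immunoproteasome, and for all genes that exceeded both floors, under the deposited scale and 8 other processings of the same arrays. The 19S base stays right of 0 (0.08 to 0.22) and the 20S and immunoproteasome medians stay left of 0 in all of them, while the lid crosses 0 when probe sets are averaged. Without x_at and s_at probe sets, the base median covers 5 genes and the immunoproteasome median 2.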

How the data were processed

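RNA was hybridised to 1 array per group, and the sample titles give the groups. The authors deposited linear intensity signals, which MAS5 computed according to the submitters' processing notes; its version and any detection calls, not given in the sources used here, remain unknown. Because the arrays are scaled to the same average, a shift shared by most transcripts cannot be seen.

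Probe sets were named through the platform annotation, and all 42 symbols equalled the RefSeq symbol of their gene identifier (GRCh38.p14). Of 54675 probe sets, 41091 had 1 symbol, 1801 several, 11721 none and 62 were controls. Signals below their array's median were set to it. With n = 1 per group no test was run: 1.5-fold and 2-fold served as thresholds of size. The number of arrays limits the precision.

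The genes, lists, thresholds and motifs were chosen with earlier results of these data known. Genes given with signals of both arrays were the catalytic subunits, activators and inhibitor, the extremes of each subcomplex, genes past 1.5-fold and genes whose probe sets disagree by 1.5-fold; of partner lists, those past 2-fold or the extremes. Outside this rule, other genes, among them ADRM1, POMP, NFE2L1, TAP1 and IRF1, were chosen with their values already known.

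The alternatives tried were median centring, quantile normalization, loess (span 0.3), floors at the 30th or 70th percentile or none, the mean over probe sets, and leaving out x_at and s_at probe sets. Calculations used Python 3.11.15, numpy 2.4.6, pandas 2.3.3, statsmodels 0.14.6 and matplotlib 3.10.9. The scaling, floor and ratio steps were tested on simulated data, with changes larger than any reported for proteasome genes. The choice or averaging of probe sets and the subcomplex medians were not part of that test.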

Additional observations from a re-analysis of the deposited data

How the results depend on the processing

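Most values moved by less than 0.48 (log2), the pooled SD between probe sets of 1 gene, under the 8 alternatives. Of 324 values of single proteasome genes, 321 moved by less. The others were PSMA5 (-0.02) and PSMD12 (-0.17) with the mean over probe sets and PSMA2 (0.72) without x_at and s_at probe sets. Several alternatives could hardly move a value: median centring shifts all genes alike, and floors leave bright genes unchanged. The mean over probe sets cannot move genes with 1 probe set. The limit of 0.48 is also wide beside the median absolute ratio of the proteasome genes, 0.19. PSMD9 thus counts as within it, though the mean over probe sets turned it from 0.12 to -0.08. The count is therefore no measure of stability. The number of genes 1.5-fold higher, 1 as deposited, was 0 with the mean over probe sets and 2 without x_at and s_at probe sets. The latter left 32 of 42 genes above the floor and raised the median of the NFE2L1 pathway from 0.20 to 0.92, with fewer genes measured. It also turned the median of the activators from -0.12 to 0.29. The mean over probe sets turned that of the interferon and peptide loading partners from -0.06 to 0.07. PSMB9 minus PSMB6 turned to -0.03 after quantile normalization and -0.02 after loess, and PSMF1 to -0.01 and below 0. No paired analysis was possible because each group has 1 array. PSMB8 minus PSMB5 has no value without x_at and s_at probe sets, since PSMB8 has only 1 probe set, of the s_at class. On the representative probe sets only PSMA8 lies at the floor, but some alternatives rest on probe sets that were below it with pDCs. Without x_at and s_at probe sets, PSMD4 (-0.20) came from 13.7 against 133 and PSMG4 (-0.63) from 36.6 against 180. The turn of PSMD9 with the mean over probe sets came from its other probe set, at 13.0 against 141. These values are only bounds.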

Other observations

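Transcripts with symbols like those of the proteasome genes were measured by their own probe sets. PSMB8-AS1, an antisense transcript at PSMB8, had 1265 with pDCs and 1498 alone (log2 ratio -0.24) and 132 against 223 (-0.76) on its other probe set, both negative like PSMB8. PSMA3-AS1 had 348 against 244 (0.52) on its brightest probe set, but 21.7, below the floor, against 146 (-0.33 or lower) on another. PSME3IP1, which encodes a protein that binds PSME3, had positive ratios on all 4 probe sets, from 0.02 to 0.66, while those of PSME3 were negative on all 4. PSMC3IP, a recombination factor, had -0.02 and -0.05. These genes were chosen by their symbols.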
